A study of Mus musculus with 4 samples.

Results

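Hadha, Hadhb, Hadh, Echs1, Acaa2, Eci1, Decr1 and Acat1 encode mitochondrial enzymes that hydrate, oxidise, reduce, cleave or isomerise acyl-CoA. Most of them act on fatty acyl-CoA after its first dehydrogenation. These 8 genes were chosen by name, out of 12393 genes with a symbol of their own on the array. Every probe set annotated to one of them and to no other gene was taken, which gave 16 probe sets. All 16 were bright enough to be tested. The group contains 3 probe sets each for Hadh, Acaa2 and Acat1, 2 each for Hadhb and Decr1, and 1 each for Hadha, Echs1 and Eci1.

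Liver RNA was measured on Affymetrix arrays, 1 array per sample. The Ad-lipin group was 2 samples from mice given an adenovirus that expressed mouse lipin 1beta, and the GFP control group was 2 samples from mice given an adenovirus that expressed green fluorescent protein. All mice were adult males of the C57BL6 strain and were killed on day 6 after injection, so both groups had received virus. The sources used here give neither the promoter in the vector nor the number of animals behind each sample. P-values therefore measure only how far these samples vary, which may be technical variation. The comparison asks which liver transcripts differ with lipin 1beta. Lipin 1 is a phosphatidate phosphatase that also acts in the nucleus with PPAR alpha and PGC-1 alpha on fatty acid oxidation genes.

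In mitochondrial beta-oxidation an acyl-CoA dehydrogenase makes an enoyl-CoA, a hydratase adds water, a hydroxyacyl-CoA dehydrogenase oxidises the product, and a thiolase cuts off acetyl-CoA. For long chains the later steps are carried out by the trifunctional protein of the inner membrane. Matrix enzymes take over as the chain shortens, and auxiliary enzymes reshape the double bonds of unsaturated fatty acids. In liver much of the acetyl-CoA goes to ketone bodies, a route that begins with a thiolase running in reverse.

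Hadha and Hadhb encode the subunits of the trifunctional protein, and their genes lie head to head, so that they share an upstream region. In the RefSeq promoter table (GRCm38.p6), which holds 250 bases before and 50 after each start, the windows of 5 of the 8 genes were scanned. The start bases of Hadha and Hadhb have 272 bases between them, and their windows overlap by 228 bases on opposite strands. The Hadhb window (chr5:30155003-30155302, plus strand) is shown because it covers this shared region, and the Echs1 window (chr7:140116372-140116671, minus strand) because it alone of the 5 holds the nuclear receptor core motif AGGTCA. Capitals mark matches to that motif and to the GC box GGGCGG, on either strand.
Hadhb: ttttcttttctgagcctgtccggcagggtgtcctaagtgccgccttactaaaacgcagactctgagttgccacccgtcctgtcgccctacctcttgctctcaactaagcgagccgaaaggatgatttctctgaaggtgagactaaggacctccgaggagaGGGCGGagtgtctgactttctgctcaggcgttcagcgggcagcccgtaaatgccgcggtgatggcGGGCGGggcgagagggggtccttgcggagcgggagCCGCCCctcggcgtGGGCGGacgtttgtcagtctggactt
Echs1: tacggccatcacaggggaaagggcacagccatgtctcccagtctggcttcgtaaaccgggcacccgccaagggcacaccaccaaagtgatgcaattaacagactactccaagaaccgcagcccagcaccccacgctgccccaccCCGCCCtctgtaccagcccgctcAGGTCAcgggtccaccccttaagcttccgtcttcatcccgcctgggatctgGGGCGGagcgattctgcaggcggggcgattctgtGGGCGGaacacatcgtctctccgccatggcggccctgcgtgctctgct
The GC box occurred in all 5 windows (Hadha, Hadhb, Echs1, Hadh and Eci1), against 35.66% of all 32851 windows of this length. These 5 windows were 58.7% to 63.7% G and C, against a median of 52.7% over all windows. The part of this in the GC box matches was not tested. The match of Hadha, at -188, and that of Hadhb, at -90, are the same bases, so these windows are not independent. AGGTCA occurred in 1 of 5, against 16.26% of all windows, and its first base in Echs1 lies at -83 from the start. The spaced pair AGGTCANAGGTCA, known as DR1, was in 0 of 5 windows and in 0.04% of all, and TCAAGGTCA, which contains AGGTCA, was in 0 of 5 and in 0.42%. CCAAT was in the Hadh window alone, against 37.41% of all. Both strands were searched throughout, and a match describes letters only.

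The signals are MAS5 values in arbitrary units with the same trimmed mean, 1501, on every array. GFP control replicate 2 stood apart from the other arrays. Over the 13576 probe sets tested its mean correlation with the others was 0.731, against 0.781 to 0.793 for the other 3, and the beta-actin control probes gave a 3' to 5' ratio, which rises as RNA degrades, of 4.22 there and 1.77 to 2.86 elsewhere. Ad-lipin replicate 2 is labelled as polyA RNA and the other samples as total RNA. Lpin1, the gene carried by the virus, exceeded both GFP control arrays on both of its probe sets only in Ad-lipin replicate 2. Its brighter probe set read 3854 and 11087 in the Ad-lipin arrays, against 7082 and 4632 in the GFP control arrays, so directions below rest on the sample labels. Of 7 hepatocyte markers, 6 were tested and their summed signal was 2169980 and 2628850 in the Ad-lipin arrays and 1543050 and 3344490 in the GFP control arrays. Of 5 Kupffer cell and macrophage markers, all tested, the sums were 19750 and 15898 in the Ad-lipin arrays and 17912 and 10104 in the GFP control arrays. For 4 of 5 endothelial markers they were 9723 and 10655 in the Ad-lipin arrays and 8476 and 12882 in the GFP control arrays. For 3 of 5 stellate cell markers they were 13860 and 33298 in the Ad-lipin arrays and 33279 and 47280 in the GFP control arrays. For 3 of 5 T and NK cell markers they were 2180 and 1077 in the Ad-lipin arrays and 2581 and 2688 in the GFP control arrays. Single genes made up much of some sums. Dcn of stellate cells alone read 11734 and 29832 in the Ad-lipin arrays and 29167 and 41993.5 in the GFP control arrays. Cd5l of Kupffer cells read 12503 and 7414 in the Ad-lipin arrays and 11853 and 3701 in the GFP control arrays. The Col1a2 probe set in the stellate sum had a log2 difference of -0.92, and its other probe set 1.36. Krt7 of cholangiocytes, Ckm of muscle and Umod of kidney read at most 1629 on any array. None of the tested markers was at 0, and Pecam1, Lrat, Col1a1, Krt19, Epcam, Sox9, Cd3e, Cd3g and Acta1 were too dim to test. In whole liver, fewer cells of a type and less RNA per cell cannot be told apart.

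Most of the 16 probe sets read higher in the Ad-lipin arrays than in the GFP control arrays, and no difference passed the test. The median log2 difference was 0.61 over the 16, against 0.0038 over all 13576 probe sets tested, and 14 of the 16 lay above 0, against 50.3% of all. Both Ad-lipin arrays exceeded both GFP control arrays in 10 of the 16, against 17.1% of all probe sets, and both lay below in 1 of the 16, against 15.9%. Probe sets of the same gene are repeated readings of it. By the brightest probe set of each gene, both lay above in 5 of 8 and below in 1 of 8, with a median log2 difference of 0.57. At a limma adjusted p under 0.05, with adjustment over all probe sets tested, 0 of the 16 were higher and 0 lower, as were 0% of all probe sets in each direction. The limma adjusted p of the 16 ran from 0.962 to 0.978. At an unadjusted limma p under 0.05, 3 of the 16 were higher, on Hadh, Hadha and Hadhb, against 2.47% of all, and 0 were lower, against 1.92% of all. An exact permutation test of a single probe set with 2 arrays against 2 cannot give a two-sided p below 0.333.

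**Figure D1:**
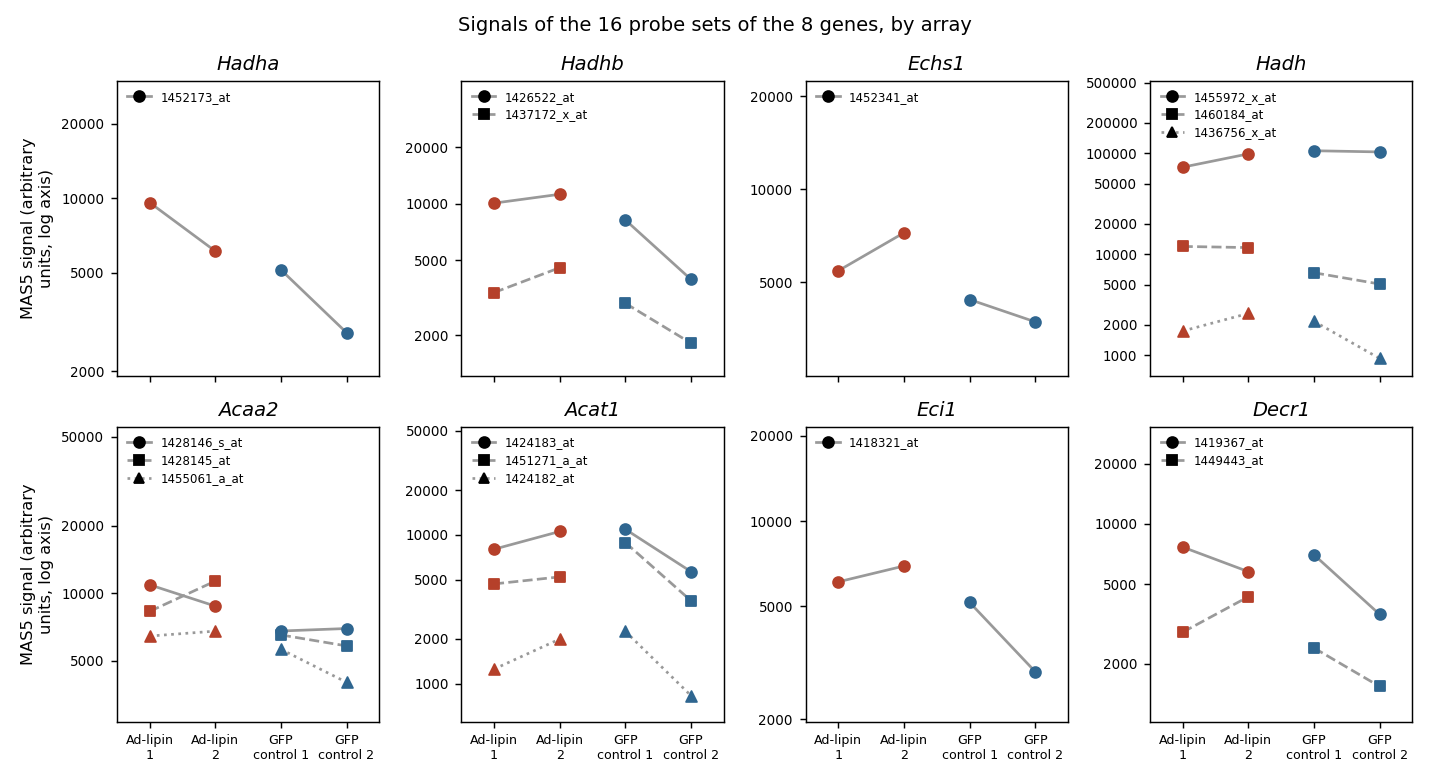
MAS5 signal (log axis, arbitrary units) of each probe set in each array, by gene; red points are Ad-lipin and blue points GFP control arrays, each marker shape is a probe set, and grey lines join the 2 arrays of a group. GFP control replicate 2 is the lowest array in 14 of the 16 probe sets, and the Acat1 points of GFP control replicate 1 lie above both Ad-lipin points.

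Both genes of the trifunctional protein read higher in the Ad-lipin arrays on every probe set, without passing the test. Hadha, whose product carries the hydratase and hydroxyacyl-CoA dehydrogenase activities, had signals of 9613 and 6116 in Ad-lipin replicates 1 and 2, against 5142 and 2864 in GFP control replicates 1 and 2. The groups did not overlap, but the gap between the lower Ad-lipin array and the higher control array was small beside the spread within each group. Hadha averaged 7864 ± 2473 in Ad-lipin livers and 4003 ± 1611 in GFP control livers (SD, n = 2 each), 2.00-fold higher on the log2 mean, with a log2 difference of 1.00 ± 0.39 (SE; limma adjusted p = 0.962). The log2 difference was 0.58 without GFP control replicate 2.

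Hadhb encodes the thiolase subunit of the same complex. Its brighter probe set (1426522_at) read 10085 and 11239 in the Ad-lipin arrays, against 8214 and 3966 in the GFP control arrays. The 2 Ad-lipin arrays lay close together here, and the 2 control arrays differed 2.07-fold. The log2 difference was 0.90 ± 0.38 (limma adjusted p = 0.962), and 0.37 without GFP control replicate 2. The dimmer Hadhb probe set (1437172_x_at) read 3375 and 4574 in the Ad-lipin arrays and 2960 and 1817 in the GFP control arrays, a log2 difference of 0.76 ± 0.43, or 0.41 without GFP control replicate 2. Both Hadhb probe sets thus had the same order of arrays, with Ad-lipin replicate 2 at the top and GFP control replicate 2 at the bottom. Hadha had Ad-lipin replicate 1 at the top instead. The ratio of the Hadha signal to the brighter Hadhb signal, which compares arrays and not the amounts of the subunits, was 0.953 and 0.544 in the Ad-lipin arrays and 0.626 and 0.722 in the GFP control arrays, a log2 difference of 0.10 between groups that overlapped.

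Echs1 encodes the short-chain enoyl-CoA hydratase of the matrix. It read 5448 and 7230 in the Ad-lipin arrays, against 4393 and 3719 in the GFP control arrays. The groups did not overlap, and the gaps between replicates, 0.41 and 0.24 on the log2 scale, were both smaller than the log2 difference of 0.63 ± 0.36 (limma adjusted p = 0.962). That difference was 0.51 without GFP control replicate 2.

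Hadh encodes the matrix hydroxyacyl-CoA dehydrogenase for medium and short chains, and its 3 probe sets did not read alike. Probe set 1460184_at read 11969 and 11658 in the Ad-lipin arrays, against 6568 and 5081 in the GFP control arrays. Its log2 difference of 1.03 ± 0.33 was the highest of the 16 and had the smallest unadjusted limma p, 0.00665 (adjusted p = 0.962). Each group was tight and the groups stood 2.04-fold apart, with a log2 difference of 0.85 without GFP control replicate 2. The brightest probe set, 1455972_x_at, went the other way, at 72927 and 98758 in the Ad-lipin arrays against 106057 and 103213 in the GFP control arrays. It was the single probe set of the 16 with both Ad-lipin arrays below both controls, with a log2 difference of -0.30 ± 0.40 that was -0.083 without Ad-lipin replicate 1 and -0.52 without Ad-lipin replicate 2. The dimmest, 1436756_x_at, read 1740 and 2600 in the Ad-lipin arrays and 2170 and 931 in the GFP control arrays, so the groups overlapped, with a log2 difference of 0.58 ± 0.55 that was -0.029 without GFP control replicate 2. The ending _x_at marks probe sets whose probes can match several transcripts, and whether these 2 also read another transcript was not tested.

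Acaa2 encodes the thiolase of the matrix that cleaves medium-chain substrates, and its 3 probe sets lay on the same side. Its brightest probe set, 1428146_s_at, read 10900 and 8755 in the Ad-lipin arrays, against 6778 and 6954 in the GFP control arrays, a log2 difference of 0.51 ± 0.33. Probe set 1428145_at read 8297 and 11327 in the Ad-lipin arrays, against 6510 and 5814 in the GFP control arrays, a log2 difference of 0.66 ± 0.33. The third, 1455061_a_at, read 6435 and 6769 in the Ad-lipin arrays, against 5614 and 3999 in the GFP control arrays, a log2 difference of 0.48 ± 0.35. All 3 had both Ad-lipin arrays above both control arrays. Without GFP control replicate 2 their log2 differences were 0.53, 0.57 and 0.23. The adjusted limma p was 0.962 for each.

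Acat1 encodes the acetoacetyl-CoA thiolase, which joins or splits acetoacetyl-CoA in ketone body metabolism and also serves isoleucine breakdown. Its groups overlapped on all 3 probe sets, because the 2 control arrays lay on either side of the Ad-lipin arrays. Probe set 1424183_at read 8023 and 10559 in the Ad-lipin arrays, against 10934 and 5678 in the GFP control arrays, a log2 difference of 0.22 ± 0.37 (limma adjusted p = 0.964). Probe set 1451271_a_at read 4690 and 5229 in the Ad-lipin arrays, against 8901 and 3618 in the GFP control arrays, a log2 difference of -0.20 ± 0.42. The dimmest, 1424182_at, read 1255 and 1997 in the Ad-lipin arrays, against 2253 and 834 in the GFP control arrays, a log2 difference of 0.21 ± 0.61. The control arrays thus differed 1.93-fold, 2.46-fold and 2.70-fold from each other. Without GFP control replicate 2 the log2 differences were -0.25, -0.85 and -0.51, all below 0, and without GFP control replicate 1 they were 0.70, 0.45 and 0.93.

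Eci1 and Decr1 serve unsaturated fatty acids. Eci1, an enoyl-CoA isomerase that moves a double bond so that the hydratase can act, read 6108 and 6944 in the Ad-lipin arrays, against 5167 and 2944 in the GFP control arrays. The groups did not overlap, with a log2 difference of 0.74 ± 0.38 (limma adjusted p = 0.962), or 0.33 without GFP control replicate 2. Decr1, the dienoyl-CoA reductase of mitochondria, gave different answers on its 2 probe sets. The brighter, 1419367_at, read 7664 and 5780 in the Ad-lipin arrays, against 7016 and 3535 in the GFP control arrays, so the groups overlapped, with a log2 difference of 0.42 ± 0.39 that was -0.076 without GFP control replicate 2. The dimmer, 1449443_at, read 2883 and 4333 in the Ad-lipin arrays, against 2403 and 1544 in the GFP control arrays. Its groups did not overlap, with a log2 difference of 0.88 ± 0.45, or 0.56 without GFP control replicate 2.

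**Figure D2:**
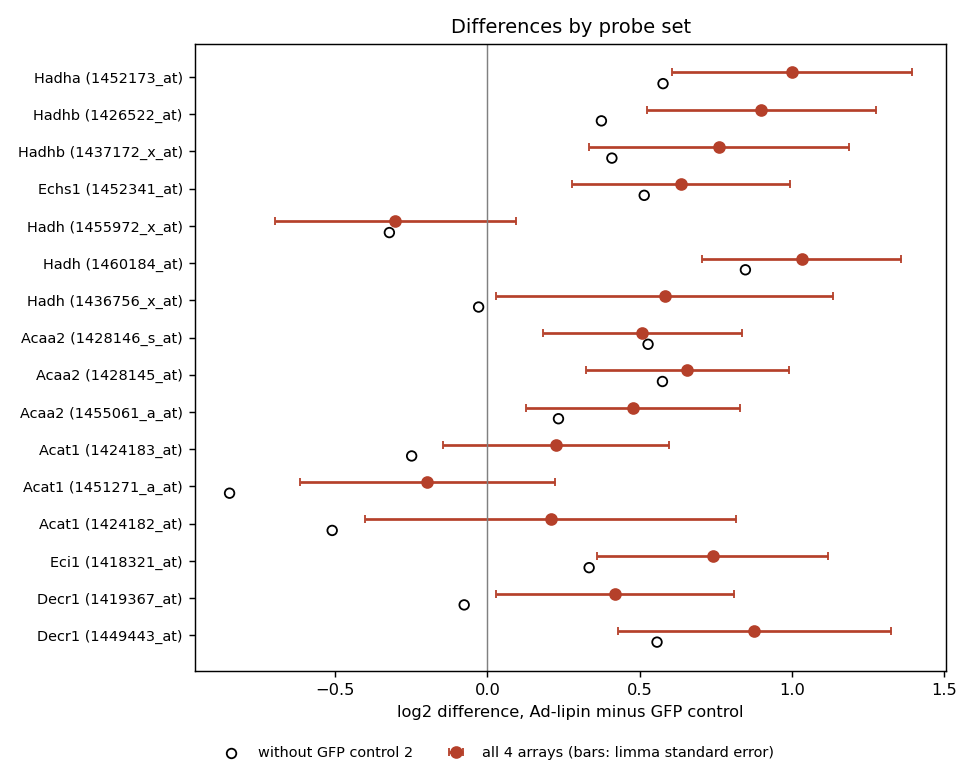
Log2 difference (Ad-lipin minus GFP control) of each probe set, with limma standard errors (n = 2 each); filled points use all 4 arrays and open points leave out GFP control replicate 2. The open points of all 3 Acat1 probe sets lie below 0, at -0.85 to -0.25.

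The gap between the 2 control arrays exceeded that between the 2 Ad-lipin arrays in 12 of the 16 probe sets, against 56.5% of all probe sets tested. Across the 16 probe sets the median log2 difference of GFP control replicate 2 minus replicate 1 was -0.76, against 0.085 over all probe sets tested. The median of Ad-lipin replicate 2 minus replicate 1 was 0.29, against -0.049 over all. In 14 of the 16 GFP control replicate 2 was the lowest of the 4 arrays, against 29.1% of all probe sets. The difference between groups was smaller than the gap between the control arrays in 8 of the 16, against 64.0% of all probe sets. It was smaller than at least one of the gaps within a group in 9, against 80.2% of all probe sets. It exceeded both gaps for Hadha, Echs1 and Hadh probe set 1460184_at, for 1 probe set each of Hadhb and Decr1, and for 2 of Acaa2.

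Without GFP control replicate 2 the median log2 difference was 0.35, and both Ad-lipin arrays exceeded the remaining control array in 10 of the 16, against 34.9% of all probe sets. Both lay below it in 4 of the 16, against 31.2%. These 4 were the 3 Acat1 probe sets and the brightest Hadh probe set. Without GFP control replicate 1 the median was 0.92. GFP control replicate 2 also had the highest actin 3' to 5' ratio and the highest summed hepatocyte markers. Among these markers, Tat and Cps1 were instead highest in Ad-lipin replicate 2. The part of the actin ratio or of the hepatocyte markers in these values was not tested.

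**Figure D3:**
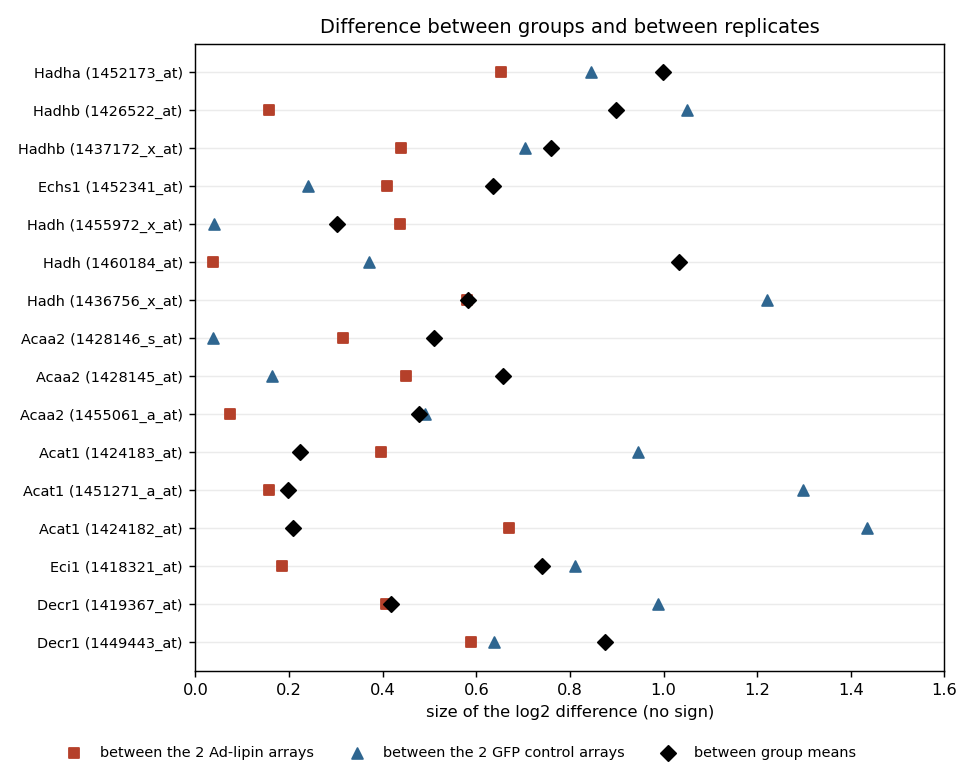
Size of the log2 difference for each probe set between group means (black diamonds), between the 2 Ad-lipin arrays (red squares) and between the 2 GFP control arrays (blue triangles). The black diamond lies left of the blue triangle in 8 of the 16 probe sets and right of both other markers in 7.

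The other genes of the pathway were read by their brightest tested probe set, from lists that were chosen with earlier results of these data known. Over all probe sets tested, 50.3% lay above 0, 17.1% had both Ad-lipin arrays above both control arrays and 15.9% had both below. Of the 8 acyl-CoA dehydrogenase and electron transfer genes, which act on the step before, 0 passed the test, 6 lay above 0 and 4 had both Ad-lipin arrays above both control arrays, with a median log2 difference of 0.49. Etfdh, which hands electrons from the dehydrogenases to ubiquinone, read 3274 and 5096 in the Ad-lipin arrays, against 1233 and 411 in the GFP control arrays (log2 difference 2.52 ± 0.59, limma adjusted p = 0.804). The Etfdh difference was 1.73 without GFP control replicate 2. Acadvl, the very long chain dehydrogenase, had 1.42 ± 0.38, or 0.92 without GFP control replicate 2, and Etfb 0.70 ± 0.31, both with a limma adjusted p of 0.962. Acadm, the medium-chain dehydrogenase, had both Ad-lipin arrays below both control arrays, at 18825 and 16307 in the Ad-lipin arrays against 29784 and 19205 in the GFP control arrays, a log2 difference of -0.45 that was -0.13 without GFP control replicate 1. Of the 4 carnitine shuttle genes, which carry acyl groups into mitochondria, 0 passed, all 4 lay above 0 and 2 had groups apart, with a median of 0.54. Cpt2, the carnitine palmitoyltransferase of the inner membrane, read 9319 and 11381 in the Ad-lipin arrays, against 6828 and 1932 in the GFP control arrays. It was 2.84-fold higher on the log2 mean without passing (limma adjusted p = 0.962), and its log2 difference was 0.59 without GFP control replicate 2; its other probe set differed by 0.095. The shuttle median was 0.26 without GFP control replicate 2, and 2 of 4 lay above 0.

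Peroxisomes hold their own hydratases, thiolases and isomerases. Of 10 listed peroxisomal genes 9 were tested, 0 passed and 8 lay above 0, against 50.3% of all probe sets. Both Ad-lipin arrays lay above both control arrays in 7, against 17.1% of all probe sets. The median log2 difference of the 9 was 0.82, and 0.43 without GFP control replicate 2. Ehhadh, the peroxisomal bifunctional enzyme, read 6528 and 4118 in the Ad-lipin arrays, against 1771 and 2935 in the GFP control arrays (1.19 ± 0.42, limma adjusted p = 0.962). Eci2, an enoyl-CoA isomerase like Eci1, had 0.97 ± 0.34, and Ech1, a dienoyl-CoA isomerase, 0.97 ± 0.39, or 0.43 without GFP control replicate 2. The peroxisomal thiolase genes Acaa1a and Acaa1b overlapped between groups, at -0.022 and 0.27 (0.48 and -0.098 without GFP control replicate 2).

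**Figure D4:**
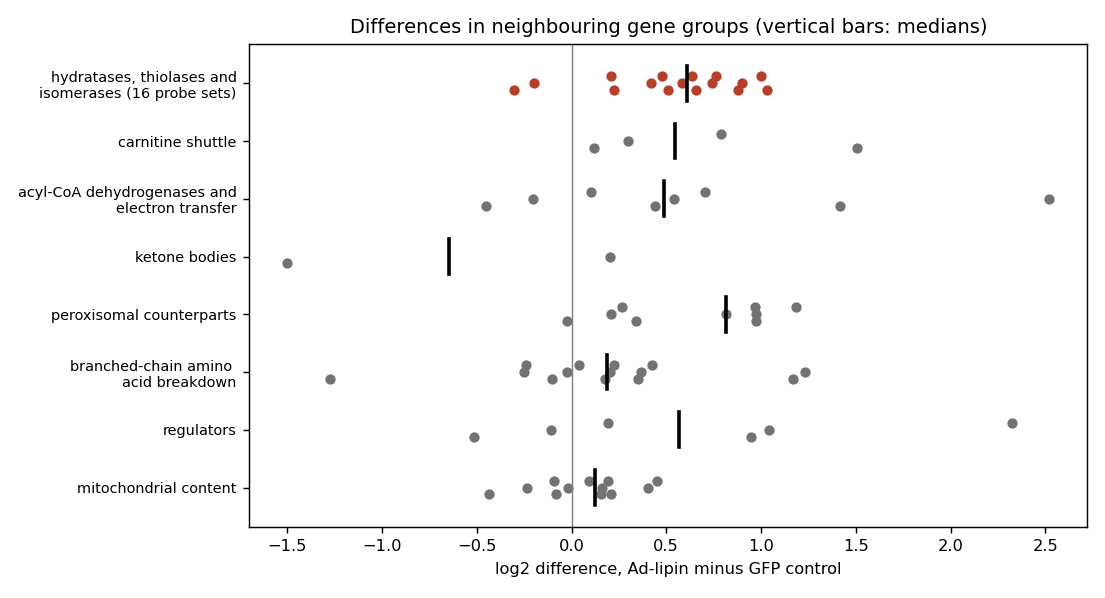
Log2 differences (Ad-lipin minus GFP control) of the 16 probe sets in red and of the brightest tested probe set of each gene in 7 other lists in grey; black bars are medians. The median of the 16 is 0.61, that of mitochondrial content genes 0.12 and that of branched-chain amino acid breakdown 0.19.

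Acat1 and Echs1 act also on the acyl-CoA products of branched-chain amino acids. Of the 15 genes listed for that breakdown 14 were tested, 0 passed, 9 lay above 0, 0 had both Ad-lipin arrays above both control arrays and 1 had both below. The median log2 difference was 0.19, and 0.085 without GFP control replicate 2. Of all probe sets 50.3% lay above 0, 17.1% had both arrays above and 15.9% both below. Dbt, a subunit of the branched-chain keto acid dehydrogenase, was the member with both below, at 1949 and 4002 in the Ad-lipin arrays against 5645 and 8077 in the GFP control arrays (-1.27 ± 0.42, limma adjusted p = 0.962). Its log2 difference was -0.75 without Ad-lipin replicate 1. Acad8 and Acadsb, dehydrogenases of the same route, overlapped between groups at 1.17 ± 0.68 and 1.23 ± 0.86, and stood at 0.16 and -0.23 without GFP control replicate 2. The other probe set of Acad8 went the other way, at -1.73. In ketone body metabolism 2 of 4 listed genes were tested, and both overlapped. Bdh1, which makes hydroxybutyrate, had 0.20 ± 0.35, or -0.10 without GFP control replicate 2 and -0.14 without Ad-lipin replicate 2. The other probe set of Bdh1 had 1.53. Oxct1, which uses ketone bodies outside liver, read 946.5 and 200.4 in the Ad-lipin arrays, against 1636 and 927 in the GFP control arrays. Its log2 difference was -1.50 ± 0.93, and -0.38 without Ad-lipin replicate 2, and its other probe set had -0.12.

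General mitochondrial genes lay on both sides of 0. Of 12 listed, from citrate synthase to respiratory chain subunits, all were tested, 0 passed, 7 lay above 0, 2 had both Ad-lipin arrays above both control arrays and 2 had both below. Their median log2 difference was 0.12, and -0.075 without GFP control replicate 2. The shares of all probe sets were 50.3% above 0, 17.1% with both arrays above and 15.9% with both below. Cox4i1 of complex IV had 0.45 ± 0.32, Uqcrc1 and Uqcrc2 of complex III 0.41 ± 0.31 and -0.43 ± 0.36, which stood at 0.26 and -0.043 without Ad-lipin replicate 1. Of 7 regulators 6 were tested, 0 passed and 4 lay above 0, with a median of 0.57, or 0.13 without GFP control replicate 2. Ppara, the receptor that drives many beta-oxidation genes, read 5452 and 13121 in the Ad-lipin arrays, against 1688 and 1695 in the GFP control arrays (2.32 ± 0.44, limma adjusted p = 0.660). Hnf4a had 0.95 ± 0.37, or 0.37 without GFP control replicate 2, and Esrra 1.04 ± 0.76, or 0.56 without Ad-lipin replicate 1. The 4 tested probe sets of Hnf4a ran from -0.12 to 0.95, so the value given is their highest.

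Each array's median over the 16 probe sets, relative to the mean of the 4 arrays on the log2 scale, was 0.15 and 0.45 in Ad-lipin replicates 1 and 2, and 0.021 and -0.70 in GFP control replicates 1 and 2. The acyl-CoA dehydrogenase and electron transfer genes stood at 0.28 and 0.26 in the Ad-lipin arrays and -0.17 and -0.43 in the GFP control arrays, and the peroxisomal genes at 0.22 and 0.26 in the Ad-lipin arrays and -0.18 and -0.50 in the GFP control arrays. The mitochondrial content genes stayed within -0.092 and 0.13 on the 4 arrays. All 3 fatty acid oxidation groups had their lowest median in GFP control replicate 2. In GFP control replicate 1 the 16 probe sets were near their 4-array mean, whereas the medians of the other 2 groups lay below it.

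**Figure D5:**
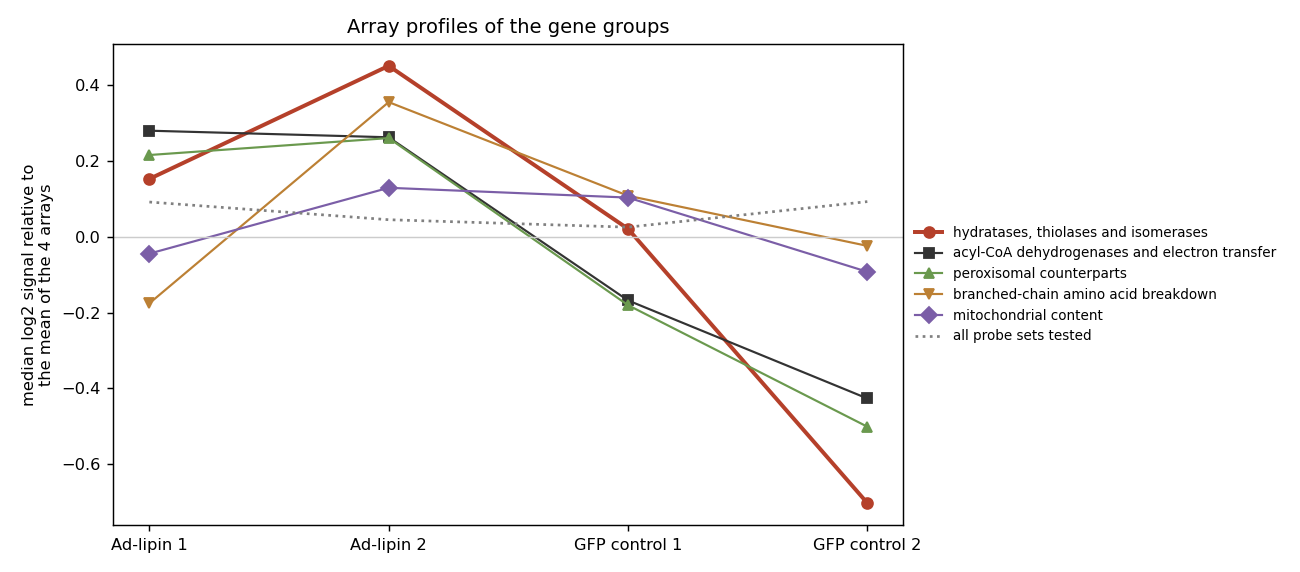
Median log2 signal of each gene group in each array, relative to each probe set's mean over the 4 arrays; lines join the medians of one gene group and imply no order of arrays. The hydratases, thiolases and isomerases (red) reach -0.70 in GFP control replicate 2, below the other groups drawn.

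Genes outside the group were ranked by how near their log2 signals, centred on their own mean, came to the median centred profile of the 8 members' brightest probe sets. The measure was the Euclidean distance over the 4 arrays among 8493 genes. The nearest were Rplp2, a ribosomal stalk protein (distance 0.0565), Rpn2 of the oligosaccharyltransferase (0.0648), Notch3, a receptor (0.0794), Npc1, a cholesterol transporter of lysosomes (0.0866), and Tars, a threonyl-tRNA synthetase (0.104). Rplp2 read 26284 and 25017 in the Ad-lipin arrays, against 21412 and 12881 in the GFP control arrays. None of these is an enzyme of beta-oxidation. The members themselves lay farther from their median profile, from 0.262 for Eci1, at rank 101, to 1.06 for Hadh, at rank 3101.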

How the data were processed

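Each array has 1 deposited intensity per probe set on a linear scale. Per the submitters' processing notes the tool was MAS5, and the sources used here do not give its version or scaling target. They were used without further normalization. Of 22626 probe sets outside the 64 controls, signals under 119.5, the 20th percentile, were set to that floor before taking log2, and the 13576 whose mean reached the 40th percentile (signal 373) were tested. Groups were compared with limma 3.58.1 in R 4.3.3 (eBayes with an intensity trend, 2 residual and 12.7 prior degrees of freedom). A two-sided test was called at 0.05 after Benjamini-Hochberg adjustment across the 13576. Errors given with log2 differences are standard errors from limma.

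Symbols came from the platform annotation, updated by Entrez identifier through the RefSeq table. A single symbol was found for 20380 probe sets, of which 20351 matched the table, several for 691 and none for 1555. Promoter sequences are RefSeq's (GRCm38.p6). Named are every probe set of the members, Lpin1, up to 3 genes per list by smallest p, and the 5 nearest profiles. Acadm, Acaa1a, Acaa1b and cell markers were named after their values were seen. The members and lists were chosen with earlier results of these data known. The fit was tested on simulated data in which every planted change was larger than any difference of the members. That test therefore does not show how often changes of the members' size would be called. With 4 arrays the number of arrays limits the precision. Some members of the other lists are not reported here.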

Additional observations from a re-analysis of the deposited data

How the results depend on the processing

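With limma, 0 member probe sets passed the threshold in the fit as reported and under every alternative run, namely quantile normalization, median centring, other floors, no filter on dim probe sets, robust eBayes or eBayes without a trend, the replicate block, and each array left out in turn. The median log2 difference of the 16 probe sets lay between 0.35 (without GFP control replicate 2) and 0.92 (without GFP control replicate 1), and was 0.70 without probe sets that can match several transcripts. The count with both Ad-lipin arrays above both control arrays was 8 after median centring, and the count with both below was 0. With an array left out, one group has a single array, so the groups separate more easily. The remaining Ad-lipin arrays then lay above the remaining control arrays in 10 to 15, with 15 reached without GFP control replicate 1. They lay below in 1 to 4, with 4 reached without GFP control replicate 2. Without GFP control replicate 2 the shares of all probe sets were 34.9% above and 31.2% below, against 17.1% and 15.9% with all 4 arrays. Shares for the other settings are not given here. Fits with an array left out take the remaining array of that group to vary as the other group does.

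Over all probe sets, leaving out an array gave 0 to 7 higher calls (7 without Ad-lipin replicate 1) and 0 to 6 lower calls (6 without Ad-lipin replicate 1, 3 without Ad-lipin replicate 2). The replicate block gave 34 higher and 18 lower, with no member among them. The labels share only replicate numbers, deviations of same-numbered arrays correlated at 0.028, and the numbers were not taken as pairs. With the brightest probe set, Acat1 ran from -0.25 (without GFP control replicate 2) to 0.70, and Decr1 from -0.076 (without GFP control replicate 2) to 0.91. Hadh, at -0.30 on its brightest probe set, was 0.44 as the mean of its 3 probe sets, which differ in sign. Without detection calls, how far a probe set stood above background is unknown.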
